A study of Mus musculus with 18 samples.

Results

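The 6 genes of energy buffering in the heart were followed here, taken by their Ensembl identifiers from all 18 count tables. They were Ckm, Ckmt2 and Ckb, which encode the muscle, sarcomeric mitochondrial and brain types of creatine kinase, Slc6a8, which encodes the creatine transporter of the cell membrane, Mb, which encodes myoglobin, and Ak1, which encodes a cytosolic adenylate kinase. All 6 members were present among 35808 nuclear genes, 35691 of which had at least 1 unique molecular identifier (UMI, a tag that marks 1 captured RNA molecule).

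Creatine kinases move a phosphate group between ATP and creatine. The mitochondrial form works where ATP is made, the muscle form sits close to myofibrils and ion pumps, and the brain form is known from brain, smooth muscle and the early heart. Creatine is taken up through the transporter, adenylate kinase makes ATP and AMP from ADP, and myoglobin stores oxygen and carries it through the cytosol. The change from the brain to the muscle and mitochondrial forms is a textbook feature of muscle development.

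Single cells came from hearts of the strain labelled Myh6/Esr1-Tomato, a cross of Myh6-Cre/Esr1 and R26-tdTomato mice, in which the Myh6 promoter drives a tamoxifen-dependent Cre in cardiomyocytes (CMs) and a red reporter, on 4 days after birth, postnatal day 4 (P4), 7 (P7), 14 (P14) or 28 (P28). Per the study's methods, all of these animals received tamoxifen after birth. P4, P7 and P14 had 2 samples each and P28 had 6 without a knockdown, and each sample was 1 nanowell chip. The remaining 6 samples were P28 hearts of the same strain whose left ventricle had been injected at P1 with lentivirus for a short hairpin RNA against Jun (shJun) or a non-targeting hairpin (shNT), with both hairpins on each chip and 2 animals per hairpin by the well reports. At P4 and at P7 both chips carried the same 2 animal names, so their samples were not separate animals by those names, and p-values over samples then measure a spread that may be partly technical. Per the labels, P4 and P7 ventricles were chopped and digested with a kit, whereas P14 and P28 hearts were perfused, so the digestion and the age cannot be told apart between P7 and P14.

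After filtering, 12829 of 15993 wells without a knockdown and 6993 of 7482 knockdown wells remained, with 5402646 to 75103261 nuclear UMIs per sample and a median of 4003 to 41531 UMIs per cell. All 153 pairs of samples shared barcodes, at most 31.6% of the smaller list, because barcodes mark well positions, and cells were therefore named by chip and barcode. Clusters were named from marker genes, and 2912 cells without and 2954 with a knockdown hairpin or its control were CM-like. Sums of at least 10 CM-like cells existed in 9 samples without a knockdown and held 142 and 165 (P4), 16 and 23 (P7), 361 and 258 (P14), and 680, 602 and 655 cells (P28 replicates 1, 3 and 5). Levels are given as CPM, the UMIs of a gene per 1000000 nuclear UMIs of a sum. The 10 CM markers together were at 64770 and 68362 CPM in P4 sums, 84754 and 99246 CPM in P7 sums, 35581 and 39167 CPM in P14 sums, and 45932 to 65951 CPM in P28 sums. The P14 sums stood apart by these low marker levels and by mitochondrial RNA, which was 79.8 and 81.5% of their UMIs against 20.3 to 40.7% at P4 and P7 and 50.3 to 72.5% at P28. Of the P4 cells, 87 of 142 and 113 of 165 belonged to a cluster with atrial markers (Sln, Myl7, Nppa), although the labels name ventricles, and no later CM-like cluster passed the same marker rule.

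The stretches of 250 bases upstream of the start of the 3 creatine kinase genes are shown first, since the results turn on how these genes part ways. They are RefSeq sequences of build GRCm38.p6, written 5′ to 3′ on the strand of the gene and ending at the base before its start. Windows were at chr7:19410844-19411093 on the plus strand for Ckm, chr13:91876886-91877135 on the minus strand for Ckmt2 and chr12:111672339-111672588 on the minus strand for Ckb. Capitals mark matches to TATATA in Ckm, to CCAAT on either strand in Ckmt2, and to CCAAT and a longer MEF2 motif, which holds TATAAA, in Ckb.
Ckm: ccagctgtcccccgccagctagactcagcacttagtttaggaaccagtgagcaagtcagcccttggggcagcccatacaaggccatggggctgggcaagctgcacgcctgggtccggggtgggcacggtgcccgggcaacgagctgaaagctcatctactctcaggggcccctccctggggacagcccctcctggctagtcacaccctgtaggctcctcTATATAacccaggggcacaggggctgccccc
Ckmt2: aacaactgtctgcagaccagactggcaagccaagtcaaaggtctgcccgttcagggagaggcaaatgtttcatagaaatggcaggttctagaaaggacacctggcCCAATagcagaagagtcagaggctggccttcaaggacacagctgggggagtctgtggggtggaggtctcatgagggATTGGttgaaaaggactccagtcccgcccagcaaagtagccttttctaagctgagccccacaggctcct
Ckb: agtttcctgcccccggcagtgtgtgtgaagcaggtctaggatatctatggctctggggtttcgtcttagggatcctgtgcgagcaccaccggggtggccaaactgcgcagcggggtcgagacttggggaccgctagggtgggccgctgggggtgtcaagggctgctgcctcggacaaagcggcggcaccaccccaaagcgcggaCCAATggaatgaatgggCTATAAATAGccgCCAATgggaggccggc
In these windows the TATATA of Ckm began 31 bases before the start, and the TATAAA of Ckb, which lies within the MEF2 match, began 28 bases before it. Among 32536 windows of the same length, 5.01% held TATATA, 12.3% TATAAA, 33.8% CCAAT and 0.513% the MEF2 motif, each on either strand. The E-box CANNTG, present in 66.2% of windows, had 4 matches in Ckmt2, 1 in Ckm and 0 in Ckb. AAGGTCA, the core of estrogen-related receptor sites, was in 4.09% of windows and matched none of the 3, while it matched 1 of 4 start windows of Ak1. A CArG motif, in 1.48% of windows, and GGGCGG, in 33.0%, were also searched. The CArG motif matched no creatine kinase window and GGGCGG matched Ckmt2 alone. These matches describe letters only.

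By the GENCODE annotation (build GRCm38) all members are protein-coding genes, at chr7:19404776-19422841 (Ckm, plus strand), chr13:91853387-91876885 (Ckmt2, minus), chr12:111669361-111672338 (Ckb, minus), chrX:73673150-73682502 (Slc6a8, plus), chr15:77015487-77050670 (Mb, minus) and chr2:32621758-32635058 (Ak1, plus). The RefSeq start of Ckm thus lies inside the longer GENCODE gene. Antisense or opposite-strand genes overlap Ckm (A930016O22Rik), Ckmt2 (1700119I11Rik) and Mb (Gm49540 and Apol6). Whether the counting used strand was not given in the sources used here, so reads of these pairs may have been mixed.

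In CM-like cells, Ckmt2 and Mb were higher at P28 than at P4, by 7.39-fold and 4.22-fold, whereas Ckm, Ckb, Ak1 and Slc6a8 did not pass the test. Within the creatine kinases, Ckb lost share to Ckm and Ckmt2 between the P4 and P7 samples and the P14 and P28 samples. Levels of different genes are not compared, since gene length and capture enter them.

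Ckm was at 984 and 849 CPM at P4, 1067 and 1451 CPM at P7, 554 and 420 CPM at P14, and 695, 995 and 1174 CPM at P28. By CPM, before the scaling used in the tests below, both P14 samples lay below all others, and the P4 and P28 samples overlapped. Ckmt2 was at 144 and 164 CPM at P4, 385 and 224 CPM at P7, 352 and 629 CPM at P14, and 1255, 835 and 679 CPM at P28. Its P4 samples were the lowest and its P28 samples the highest of all by CPM, with P7 and P14 overlapping in between. Ckb was at 39.2 and 77.3 CPM at P4, 92.5 and 71.3 CPM at P7, 12.7 and 5.26 CPM at P14, and 23.1, 17.3 and 32.4 CPM at P28. Every P14 and P28 sample was below every P4 and P7 sample for Ckb by CPM, and its P14 values rested on 70 and 17 UMIs.

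**Figure D1:**
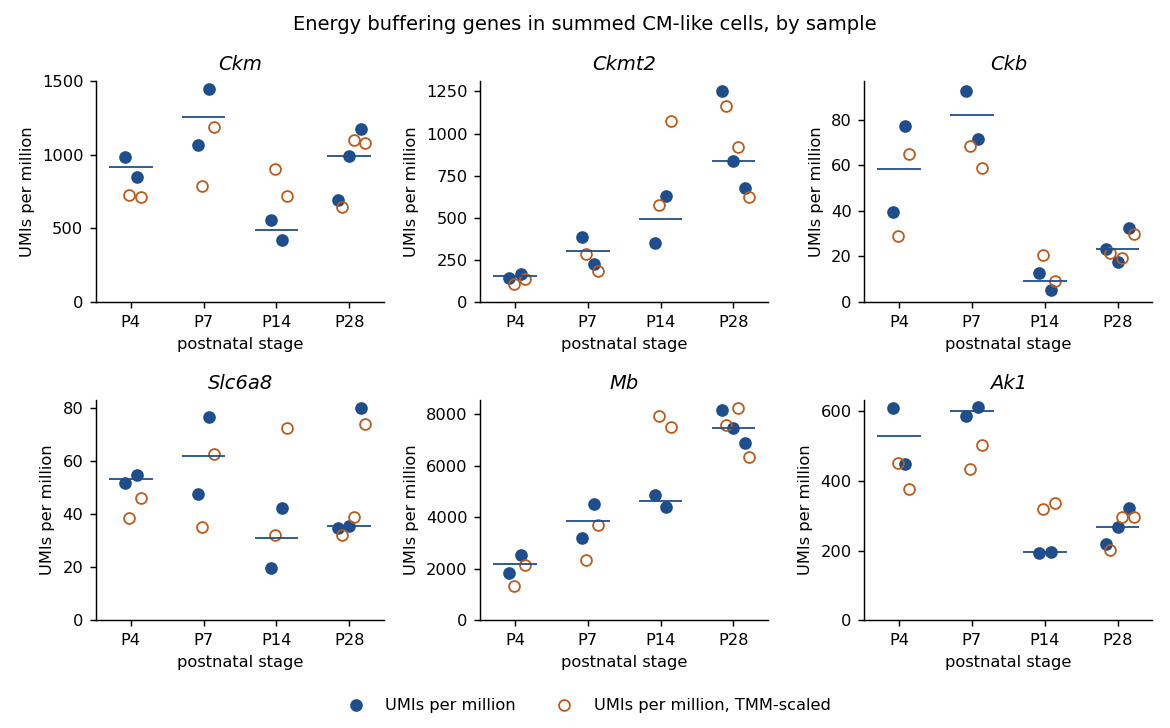
Levels of the 6 members in summed CM-like cells, with one panel per gene and the stage on the x axis. Filled points are the CPM of each sample, open points the same after TMM scaling, and lines the stage medians of the filled points. Ckmt2 goes from 144 and 164 CPM at P4 to between 679 and 1255 CPM at P28, and the open points lie above the filled ones at P14.

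Mb was at 1824 and 2556 CPM at P4, 3181 and 4508 CPM at P7, 4851 and 4392 CPM at P14, and 8159.7, 7447 and 6878 CPM at P28. By CPM the P28 samples were above all others, and P7 and P14 overlapped. Ak1 was at 609 and 449 CPM at P4, 586 and 612 CPM at P7, 194 and 196 CPM at P14, and 218, 267 and 322 CPM at P28. As with Ckb, no P14 or P28 sample reached the range of P4 and P7. Slc6a8 was at 51.8 and 54.9 CPM at P4, 47.4 and 76.4 CPM at P7, 19.6 and 42.4 CPM at P14, and 34.7, 35.4 and 80.1 CPM at P28, with overlap between P4, P7 and P28. A single cell supplied 51.8% of the Slc6a8 UMIs of P14 replicate 2. In the small P7 sums, 1 cell supplied 50% of the Ckb UMIs of replicate 1, and 44.1% of the Ckm and 45.4% of the Mb UMIs of replicate 2.

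Sums were tested across all genes with edgeR's quasi-likelihood test, TMM scaling and Benjamini-Hochberg adjustment, two-sided, with all stages in 1 fit. TMM factors were 0.611 and 0.585 in the P14 samples and 0.905 to 1.35 in the others. Scaled P14 levels are thus higher than their CPM, and several sample orders given above did not hold after scaling. Scaled Mb was at 7941 and 7514 CPM at P14 and 6341 CPM in P28 replicate 5. Ckmt2 was then at 1076 CPM in P14 replicate 2 and 626 CPM in P28 replicate 5. Ckm was at 907 CPM in P14 replicate 1 against 729 and 714 CPM at P4. Ckb was at 29.8 CPM in P28 replicate 5 and 29.1 CPM in P4 replicate 1. From P4 to P28, 2 of 6 members passed an adjusted p of 0.05, both higher, against 2.09% of all 13948 genes tested (1.23% higher and 0.868% lower). Ckmt2 was higher by 2.89 on the log2 scale (SE 0.48, edgeR adjusted p = 0.00275) and Mb by 2.08 (SE 0.45, edgeR adjusted p = 0.0170). The log2 differences of the other members were 0.38 (SE 0.41, edgeR adjusted p = 0.748) for Ckm, -1.01 (SE 0.56, edgeR adjusted p = 0.435) for Ckb, -0.65 (SE 0.38, edgeR adjusted p = 0.473) for Ak1 and 0.19 (SE 0.54, edgeR adjusted p = 0.931) for Slc6a8. With P4 replicate 1 left out, the edgeR adjusted p became 0.108 for Ckmt2 and 0.296 for Mb, and with P4 replicate 2 left out 0.0549 and 0.109, while the log2 differences stayed between 1.81 and 3.13. DESeq2, which called 6.3% of genes in this contrast, also called both.

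Both also passed from P4 to P14, where 1.65% of genes were called (1.11% higher). Ckmt2 was higher by 2.76 (SE 0.50, edgeR adjusted p = 0.00610) and Mb by 2.14 (SE 0.47, edgeR adjusted p = 0.0235) on the log2 scale. From P7 to P14, where 2.93% of genes were called (1.94% higher and 0.989% lower), Ckmt2 alone passed, with a log2 difference of 1.82 (SE 0.48, edgeR adjusted p = 0.0453), beside 1.35 (SE 0.46, edgeR adjusted p = 0.106) for Mb and -2.07 (SE 0.66, edgeR adjusted p = 0.0881) for Ckb. These contrasts share samples with the one from P4 to P28. From P4 to P14, Ckmt2 lost its call without P4 replicate 1, P4 replicate 2 or P14 replicate 2 (edgeR adjusted p = 0.175, 0.0915 and 0.0760), and Mb without any 1 of the 4 samples compared (0.104 to 0.312) or without atrial cells (0.0595). From P7 to P14 the call of Ckmt2 was lost without any 1 of the P4, P7 or P14 samples or without P28 replicate 3 (0.0551 to 0.287), and also without atrial cells (0.0658). Of the alternatives tried, 12 kept this call and 12 lost it. Between stages with the same digestion no member passed in edgeR. From P4 to P7, where 0.0717% of genes were called, Ckmt2 differed by 0.94 (SE 0.47, edgeR adjusted p = 0.373) and Mb by 0.79 (SE 0.46, edgeR adjusted p = 0.436) on the log2 scale. From P14 to P28 no gene was called by edgeR (867 had an unadjusted p under 0.05, and DESeq2 called 48), and member differences lay between -0.30 and 0.64 on the log2 scale, with a lowest unadjusted p of 0.297.

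The P14 contrasts depended on scaling. Without TMM factors the median over all genes was -1.14 from P4 to P14 and -0.83 from P7 to P14 on the log2 scale. From P7 to P14, Ckb was then lower by 3.17 (edgeR adjusted p = 0.00775), Ak1 by 1.62 (0.0162) and Ckm by 1.37 (0.0332), and Ckmt2 no longer passed at 0.69 (0.299). With library sizes set to the summed CM marker UMIs, Ckmt2 differed by 1.93 (edgeR adjusted p = 0.0278) and Mb by 1.58 (0.0180) in that contrast, so that the call of Ckmt2 from P7 to P14 did not hold under all 3 scalings. From P4 to P28, the calls of Ckmt2 and Mb held under all 3, and the median over all genes moved to -0.29 without TMM factors. From P4 to P14 without TMM factors, Mb lost its call at 1.08 (edgeR adjusted p = 0.0679), and Ckb was lower by 2.68 (0.0196) and Ak1 by 1.44 (0.0312). The ratios that follow need no scaling.

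Among the UMIs of Ckb, Ckm and Ckmt2 together, Ckb made up 3.36 and 7.09% at P4 and 5.99 and 4.09% at P7. It was at 1.38 and 0.499% at P14 and at 1.17, 0.938 and 1.72% at P28. The highest late share, in P28 replicate 5, had an exact 95% interval of 1.46 to 2.00%, and the lowest early one, in P4 replicate 1, of 2.93 to 3.84%. Such intervals cover counting error only. The log2 ratio of Ckb to Ckm plus Ckmt2 averaged -4.27 ± 0.52 (SD, n = 4) at P4 and P7 and -6.54 ± 0.67 (SD, n = 5) at P14 and P28, which fell by 2.27 or 4.84-fold, with p = 0.00794 in a two-sided exact permutation test over samples, the smallest p that 126 splits allow. With sums per named animal, 4 against 7, the log2 difference was -2.39 and the exact permutation p = 0.00303, again the smallest possible. Of the 7, 1 pooled P28 replicates 3 and 4, whose wells name no separate animals, and the P14 units were the chip sums. An early unit, of P7, held only 10 cells. The early and late groups are also those of the 2 digestions. They differed in chip make-up as well. CM-like cells were a larger part of each P14 and P28 chip with a CM-like sum than of any P4 or P7 chip. Age, digestion and chip make-up thus cannot be told apart. The part of RNA from other cells in the Ckb share of CM-like sums was not tested.

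**Figure D2:**
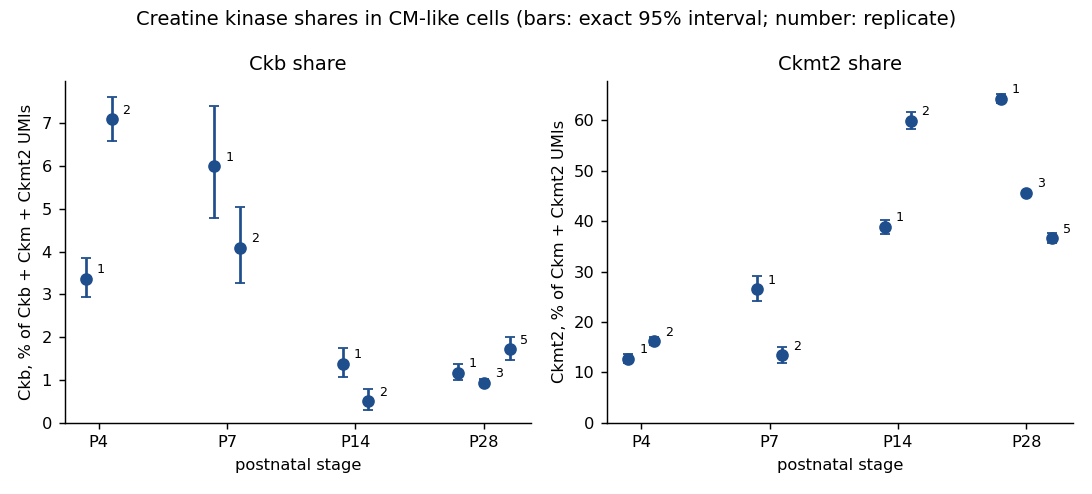
Shares of creatine kinase UMIs in CM-like cells by stage, one point per sample with its exact 95% interval and replicate number. Left, Ckb as a percent of Ckb, Ckm and Ckmt2, which is 3.36 to 7.09% at P4 and P7 and 0.499 to 1.72% later; right, Ckmt2 as a percent of Ckm and Ckmt2, which is 12.7 to 26.5% and then 36.6 to 64.3%.

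Ckmt2 made up 12.7 and 16.2% of the UMIs of Ckm and Ckmt2 in P4 samples and 26.5 and 13.4% in P7 samples. It made up 38.9 and 60.0% in P14 samples and 64.3, 45.6 and 36.6% in P28 samples. Its log2 ratio to Ckm rose by 2.27, from -2.33 ± 0.60 (SD, n = 4) to -0.05 ± 0.74 (SD, n = 5), and the ratio of Ckb to Ckm fell by 1.54, from -3.99 ± 0.59 to -5.53 ± 0.54. Each had an exact permutation p = 0.00794, also after adjustment over the 3 ratios. The last 2 ratios were added after the data had been seen. P14 and P28 did not separate, with Ckb shares of 0.499 to 1.38% and 0.938 to 1.72%.

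CM-like cells were not uniform within a stage. At P4, cells of the atrial cluster held 168 and 178 CPM of Ckmt2 against 82.0 and 106 CPM in the other CM-like cells of the same chips. Their Mb was lower on both chips, at 1528 and 2178 CPM against 2589 and 4163 CPM, while their Ak1 was higher, at 657 and 487 CPM against 485 and 286 CPM. Slc6a8 was at 24.7 and 49.3 CPM in the atrial cluster and at 122 and 78.7 CPM outside it. The other CM-like cells of P4 still held 9782 and 10384 CPM of atrial markers, against 1136 and 392 CPM in P7 sums. These are descriptions of clusters, with no test. Without cells of the atrial cluster, the log2 difference from P4 to P28 was 3.85 for Ckmt2 (edgeR adjusted p = 0.00116) and 1.70 for Mb (0.0415), that of Ak1 became 0.04 (0.971) and that of Slc6a8 -0.47 (0.729).

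At P14, 166 of 361 and 153 of 258 CM-like cells belonged to a cluster led by Sp1 with low CM marker levels of 22443 and 20573 CPM, against 45637 and 67030 CPM in the other CM-like cells. Their Ckm was at 372 and 288 CPM, beside 694 and 617 CPM in the others, and their Mb at 3032 and 2624 CPM beside 6243 and 7041 CPM. No Ckb UMI was found in the other 105 CM-like cells of P14 replicate 2, which allows a level of up to 2.32 CPM (3 UMIs), for counting error only. An alternative without this cluster and its P28 counterpart was added after the data had been seen. There Ckmt2 and Mb were still higher at P28 than at P4, by 2.89 (edgeR adjusted p = 0.00415) and 2.07 (0.0167) on the log2 scale. The log2 difference of the Ckb ratio was -3.15 (exact permutation p = 0.0159). Its size rests on P14 replicate 2, whose log2 ratio of -12.0 was set by the 0.5 added to its 0 Ckb UMIs (SD of the late samples 2.60).

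Animals of the same chip could be compared at P28. Ckmt2 was at 1363 and 1091 CPM in the 2 animals of replicates 1 and 2, at 832 CPM in replicates 3 and 4, whose wells name no separate animals, and at 644 and 712 CPM in the 2 animals of replicates 5 and 6. The animals of replicates 5 and 6 were the lowest. Ckm was lowest where Ckmt2 was highest, with 726 and 650 CPM, then 993 CPM, then 1059 and 1345 CPM. Mb was at 8876 and 7076 CPM, 7432 CPM, and 6156 and 7956 CPM.

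Other cells of the heart were compared by class. Among CM-like, endothelial-like, fibroblast-like and macrophage-like sums, Ckm, Ckmt2, Mb and Ak1 were highest in CM-like cells in all 9 samples that had them. P28 replicates 3 and 5 had only endothelial-like sums to compare with. In replicate 3 the CM-like level was 1.10 (Mb) to 1.20 (Ckmt2) times the endothelial-like one. In endothelial-like sums Ckm was at 281 and 248 CPM at P4, 236 and 227 CPM at P7, 188 and 164 CPM at P14, and 26.6 to 879 CPM at P28 (median 282). The high P28 values were those of replicates 1, 3 and 5, at 465.95, 879 and 774 CPM, where most cells were CM-like and the CM markers of endothelial-like sums were at 27396, 52822 and 38055 CPM, against 1225 to 2560 CPM in replicates 2, 4 and 6. Ckm per 1000 CM marker UMIs was 10.7 to 20.4 in CM-like sums and 11.8 to 43.8 in endothelial-like sums, so that these ranges overlapped. Among the other classes, erythroid-like sums at P4, with CM markers at 36421 and 44978 CPM, held 2412 and 2596 CPM of Mb, above the CM-like sums of the same chips. The 24 T cell-like cells of P28 replicate 1, with CM markers at 41277 CPM, held as much Ckmt2 (1281 CPM) and Mb (8411 CPM) as its CM-like cells. The part of CM RNA from outside these cells in the levels was not tested.

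**Figure D3:**
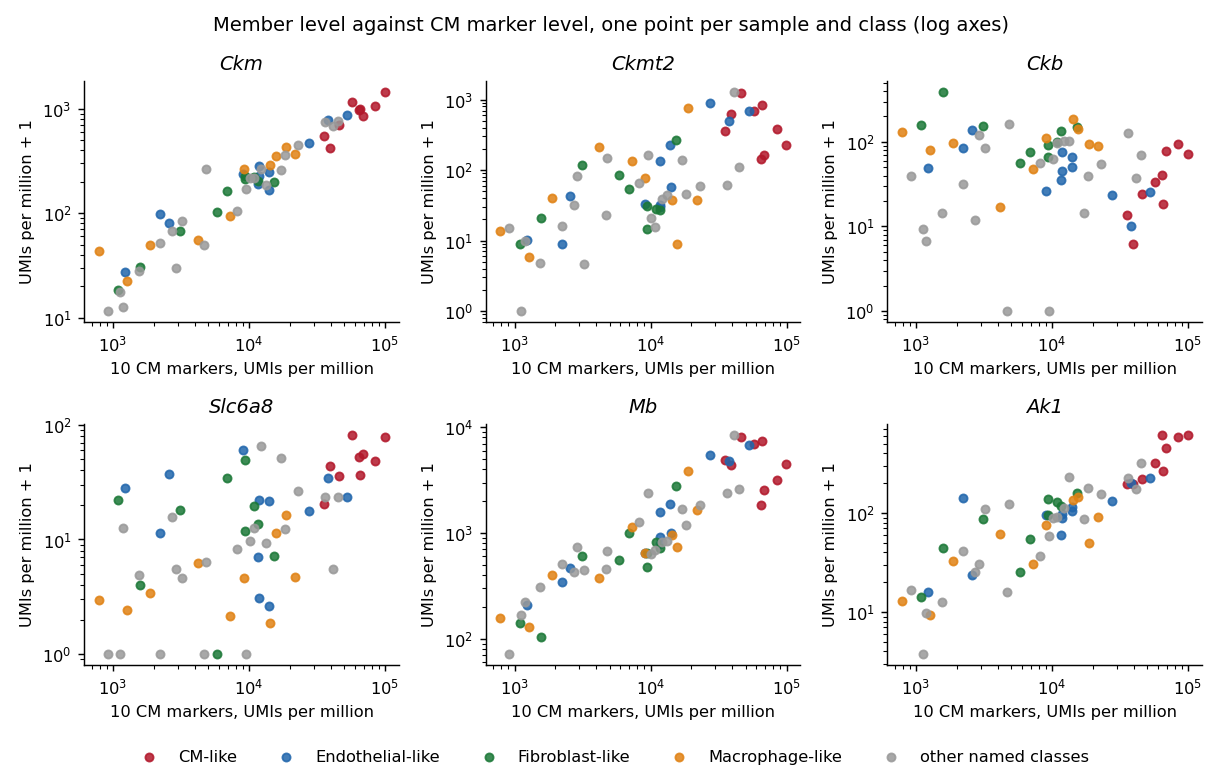
Level of each member (y axis, CPM plus 1) against the summed level of 10 CM markers (x axis, CPM), both on log axes, with one point per sample and cell class. The highest Ckm, Ckmt2 and Mb levels outside CM-like cells lie at high marker levels, whereas Ckb reaches 389 CPM in a fibroblast-like sum with CM markers at 1569 CPM.

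Ckb had another distribution. It was highest in fibroblast-like or macrophage-like sums in 7 of the 9 samples, the exceptions being P28 replicates 3 and 5, which had no sum of either class. Fibroblast-like sums held 65.7 and 134 CPM at P4, 90.6 and 99.7 CPM at P7, 74.3 and 54.6 CPM at P14, and 148, 154, 156 and 389 CPM in P28 replicates 1, 2, 4 and 6. All P28 values were above all earlier ones. Macrophage-like sums held 140 and 89.2 CPM at P4, 111 and 186 CPM at P7, 46.9 and 15.9 CPM at P14, and 78.6 to 132 CPM at P28. Per 1000 CM marker UMIs, Ckb was 0.134 to 1.13 in CM-like sums and 7.02 to 248 in fibroblast-like sums.

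No member passed in edgeR in these classes in the contrasts from P4 to P14, P14 to P28 and P4 to P28. Of all genes, 0.0131, 0 and 0.531% were called in endothelial-like, 0.738, 0 and 1.37% in fibroblast-like and 0.374, 0 and 0.178% in macrophage-like sums. DESeq2, which called 3.58, 4.19 and 1.43% of genes from P4 to P28 in these classes, called no member. Many of all genes tested had an unadjusted p under 0.05 in edgeR in each of these contrasts and classes. Over the 6 members in the same contrasts and classes, 8 differences had one, and this count was not tested against that of all genes. Ckmt2 from P4 to P28 was among them in each class. Its log2 differences were 3.43 (SE 1.48, edgeR adjusted p = 0.427) in endothelial-like and 2.34 (SE 0.98, edgeR adjusted p = 0.325) in fibroblast-like sums. In macrophage-like sums it was 3.14 (SE 1.42, edgeR adjusted p = 0.530), beside 2.89 in CM-like sums. Ckb in fibroblast-like sums differed by 1.17 from P4 to P28 on the log2 scale (SE 0.58, edgeR adjusted p = 0.465). Ckm there differed by -1.46 (SE 0.66, edgeR adjusted p = 0.384), and without P28 replicate 1, the fibroblast-like sum with the most CM marker RNA (15264 CPM), it was lower by 2.496 (edgeR adjusted p = 0.0118). Likewise Ckm in macrophage-like sums was lower by 3.17 without that replicate (edgeR adjusted p = 0.00733), beside -1.40 with it (0.636). In endothelial-like sums, leaving out P28 replicates 1, 3 and 5 together gave a log2 difference of -1.81 for Ckm (edgeR adjusted p = 0.04995) from P4 to P28. From P14 to P28 it turned the differences of Ckmt2 and Mb from 0.86 and 0.65 to -3.72 (edgeR adjusted p = 0.00219) and -2.82 (0.000342). These alternatives compare P28 chips almost without CM-like cells with earlier chips that held more of them, so chip make-up and age cannot be told apart.

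The share of cells with a UMI was also compared. After each cell was thinned to 1000 UMIs, Ckb was found in 2.11 to 7.27% of CM-like cells at P4, 0.388 to 1.66% at P14 and 2.36 to 4.12% at P28. In fibroblast-like cells it was found in 5.51 to 9.79%, 3.23 to 9.62% and 3.85 to 16.98% at these stages. Unthinned, the CM-like shares were 38.0 to 55.2%, 3.10 to 8.86% and 12.1 to 23.6%. At P7 the thinned shares of Ckb were 4.35 to 18.75% in CM-like and 6.17 to 8.16% in fibroblast-like cells. The thinned CM-like shares of Ckb thus overlapped between P4 and P28. They also overlapped the fibroblast-like shares at P4, P7 and P28, but not at P14. Mb was found in 71.1 to 78.2% of thinned CM-like cells at P4 and in 99.1 to 99.8% at P28. It was also found in 10.7 to 96.2% of thinned fibroblast-like cells at P28, a range that spans the chips with few and with many CM-like cells. Thinned P7 shares rested on 16 and 23 CM-like cells. In 30 negative control wells of the P28 chips without a knockdown, 36 Mb UMIs, 6 of Ckm, 4 of Ckmt2 and 1 of Ckb were counted. These wells had a median of only 210 UMIs, and 306 CM marker UMIs were counted in them. In 30 such wells of the knockdown chips, with a median of 476.5 UMIs, 644 Mb and 3792 CM marker UMIs were counted.

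**Figure D4:**
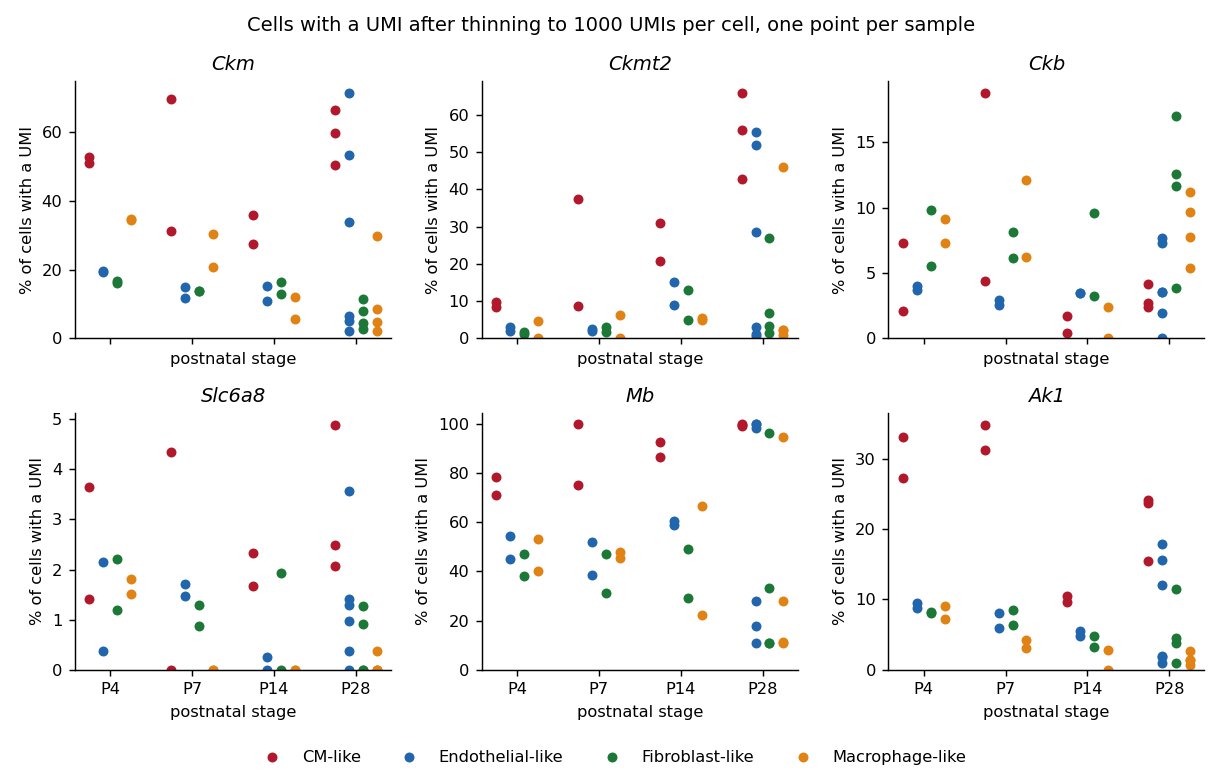
Percent of cells with at least 1 UMI of each member after thinning every cell to 1000 UMIs, by stage, with one point per sample and class. Mb reaches 99.1 to 99.8% of CM-like cells at P28, and Ckb stays between 0.388 and 1.66% of CM-like cells at P14.

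Other genes of the pathway were followed as a list of 54, of which 53 were in the tables and 46 passed the low-count filter in CM-like sums. From P4 to P28, 2 were higher, Ckmt2 and Mb, which are the members reported above, and 1 was lower. Of all 13948 genes tested, 1.23% were called higher and 0.868% lower. The list's median log2 difference was 0.09, and that of all genes tested 0.02. The gene that fell was Prkag2, which encodes a regulatory subunit of AMP-activated kinase, from 56.8 and 73.0 CPM at P4 to 3.002 to 10.4 CPM at P28 (log2 difference -3.13, SE 0.75, edgeR adjusted p = 0.0342). At P7 it was at 11.6 and 34.0 CPM and at P14 at 1.63 and 4.33 CPM, so that no later sample reached the P4 range. Without P4 replicate 1 or without P4 replicate 2, no list gene passed.

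Neighbours in nucleotide exchange gave mixed values. Slc25a4, the ATP/ADP carrier of heart and muscle mitochondria, was at 3859 to 7174 CPM at P4 and 5015 to 9004 CPM at P28 (log2 difference 0.57, SE 0.47, edgeR adjusted p = 0.641). Slc25a5, the carrier of other and of dividing cells, was at 577 to 959 CPM at P4 and 139 to 294 CPM at P28 (log2 difference -1.55, SE 0.41, edgeR adjusted p = 0.0511). Vdac1, the channel of the outer mitochondrial membrane, differed by 0.54 (SE 0.40, edgeR adjusted p = 0.595). Nme1, a nucleoside diphosphate kinase, was at 170 to 204 CPM at P4 and 46.8 to 62.5 CPM at P28 (log2 difference -1.43, SE 0.44, edgeR adjusted p = 0.0962). None of these passed.

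Ak3, the adenylate kinase of the mitochondrial matrix, differed by 0.57 from P4 to P28 (SE 0.52, edgeR adjusted p = 0.695). Enzymes of creatine synthesis had few UMIs. Gatm, its first enzyme, reached at most 3.60 CPM in a CM-like sum and Gamt, its last, 18.7 CPM. Ckmt1, the ubiquitous mitochondrial creatine kinase, had 16 UMIs over all 9 sums, too few for the filter. Of the regulators of muscle energy genes, Ppargc1a differed by -0.30 (edgeR adjusted p = 0.876), Esrra by 1.16 (0.481) and Mef2a by -0.92 (0.261) from P4 to P28. From P7 to P14 Mef2a was lower, at 680 and 786 CPM against 88.4 and 124 CPM (log2 difference -1.67, SE 0.45, edgeR adjusted p = 0.0453), and Ngb, the neural globin, passed with no UMI in the P7 sums and 113 UMIs at P14.

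The genes most like each creatine kinase were found by Pearson correlation of log2(CPM + 1) over the 9 CM-like sums, among 4881 genes with a mean of at least 20 CPM. They are a description, since the sums share stages, chips and depth. For Ckm the closest were Atp5g1, a subunit of mitochondrial ATP synthase (r = 0.974), and Calu (0.969), followed by a gene without a symbol, Rpsa-ps11 and Rpl18-ps1. Ckmt2 was closest to Hspb8, a small heat shock protein (0.965), Dusp1 (0.940), Lmod2, a nucleator of thin filaments (0.929), Rgs5 (0.924) and Epas1 (0.913). Ckb was closest to Eef2, an elongation factor of translation (0.983), Gm17018, Prdx4, Scamp2 and Tmem208. Among the members, Ckmt2 went with Mb (r = 0.888), Ckb with Ak1 (0.874) and Ckm (0.793), and Ckm with Ak1 (0.775). All these r come from CPM before TMM scaling, which raises the P14 levels of every gene (factors 0.611 and 0.585).

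In the knockdown hearts, Jun itself was at 52.4 and 64.5 CPM in CM-like cells of the shNT animals and 26.1 and 28.3 CPM in those of the shJun animals. The groups did not overlap, with a log2 difference of -1.09 (SE 0.25) that did not pass after adjustment (edgeR adjusted p = 0.99999, unadjusted p = 0.00387). In the other 3 classes the Jun values of the hairpins overlapped, for example at 127 and 118 CPM with shNT and 60.7 and 143 CPM with shJun in endothelial-like sums.

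No member passed the test between hairpins in CM-like cells, and the values of the hairpins overlapped for all members but Mb. Ckm was at 2002 and 1495 CPM with shNT and 1908 and 1420 CPM with shJun, and Ckmt2 at 1458 and 1647 CPM against 1302 and 1909 CPM. Mb was at 20317 and 20059.8 CPM against 18111 and 19952 CPM, so that both shJun animals were lower, by less than the SE of the difference (log2 difference -0.08, SE 0.28). Ckb was at 37.7 and 41.3 CPM against 44.1 and 36.2 CPM, and 1 cell supplied 27.2% of the UMIs behind the 41.3 CPM. Within chips that held at least 10 CM-like cells of both hairpins, Ckb was higher with shJun on 4 of 4, at 52.2 against 45.0 CPM, 38.3 against 29.4 CPM, 28.6 against 20.1 CPM and 43.4 against 38.7 CPM. Of these, chips 1 and 2 both held animals 1 and chips 3 and 4 both held animals 2, so the chips were not separate animals. With sums per chip and hairpin and the chip as a block, the log2 difference of Ckb was 0.31 (SE 0.15, edgeR adjusted p = 0.977, unadjusted p = 0.0792). That p counts repeat chips of the same animals as replicates. Per animal, the log2 difference of Ckb was 0.03 (SE 0.24). The shNT and shJun animals that shared chips were alike in Ckm, where animals 1 were above animals 2 with either hairpin, and in Ckmt2, where they were below. Slc6a8 was at 72.4 and 58.9 CPM against 53.3 and 65.5 CPM, and Ak1 at 401 and 266 CPM against 320.0 and 365 CPM.

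**Figure D5:**
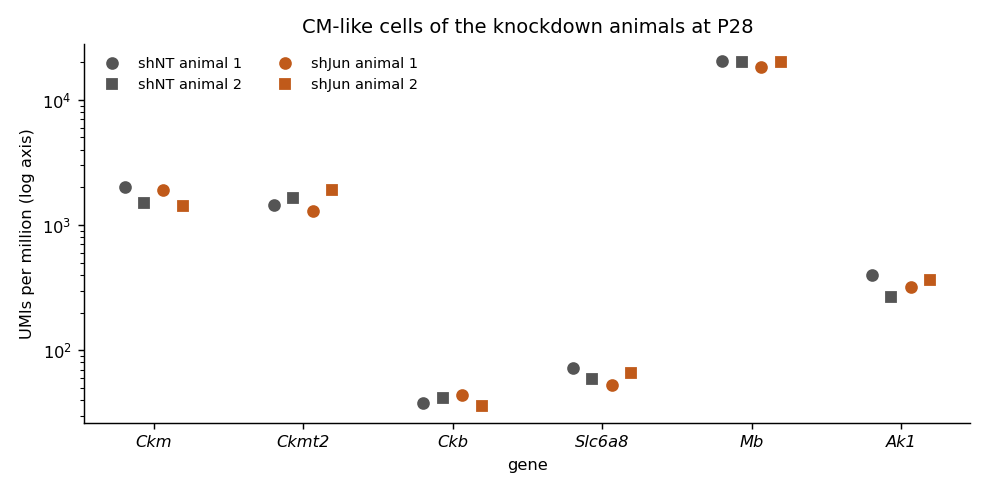
Levels of the 6 members in CM-like cells of the 4 knockdown animals at P28, in CPM on a log axis, with grey for shNT, orange for shJun, circles for animals 1 and squares for animals 2. The ranges of the hairpins overlap in all members but Mb, which lies between 18111 and 20317 CPM in all 4 animals.

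Log2 differences between shJun and shNT lay between -0.14 (SE 0.25) for Slc6a8 and 0.06 (SE 0.27) for Ckmt2, and all 6 had an edgeR adjusted p = 0.99999. The CM-like clusters were not alike between animals. A cluster of 245 of the 798 CM-like cells of shNT animal 2, led by Ccl21a with Pcdh17 and Sox7, had the lowest CM markers of the 12 CM-like clusters (91556 CPM), and clusters closest to CMs, of 110, 325 and 259 cells in the shJun animals and of 266 and 54 cells in shNT animal 2, were left unnamed. No member passed without the first cluster, where Ckb differed by 0.29 (SE 0.27, edgeR adjusted p = 0.99995), or with those unnamed clusters added, both chosen after the data had been seen. No gene among 17011 passed in edgeR (0% called, 352 with an unadjusted p under 0.05), and DESeq2 called 10 (0.0458%), none of them a member. Ckb made up 1.08 and 1.30% of the 3 creatine kinases with shNT and 1.35 and 1.08% with shJun. In endothelial-like, fibroblast-like and macrophage-like sums no member or other gene passed in edgeR either (0% called, 709, 548 and 557 genes with an unadjusted p under 0.05), and DESeq2 called 191, 93 and 88 genes there (1.28, 0.653 and 0.67%), again no member. These tests had 2 residual degrees of freedom, and a p that misses the threshold does not show that the hairpins act alike.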

How the data were processed

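UMI counts per gene and well were deposited as 1 matrix per chip, made by the authors with the ICELL8 pipeline, STAR 2.5.2b against mm10 and featureCounts of Subread 1.4.6-p1 with Ensembl genes, per the labels and the study's methods. Whether counting used strand was not given in the sources used here. The deposited files hold no comparisons by the authors that were used here.

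Wells with at least 500 genes and a log10 UMI total within 2 SD of the mean of their stage were kept. Cells of each stage were clustered with scanpy 1.11.5 without the 6 members and the energy list, and a cluster was named from at least 3 detected markers. No doublet caller was run, since wells had been imaged for single cells. Clusters rebuilt in this way can differ from the study's own. Counts of at least 10 cells were summed per sample and class. Mitochondrial genes, spike-ins and the reporter were left out of totals and tests. The sums were tested with edgeR 4.0.16 (glmQLFit and glmQLFTest, TMM, filterByExpr, R 4.3.3) across all genes, with an adjusted p of 0.05 as the threshold. Sums without a knockdown were fitted over 4 stages and knockdown sums per animal. DESeq2 1.42.0 was an alternative. The study's own tests over single cells were not repeated. The Ckb ratio, log2 of UMIs plus 0.5, was tested by exact permutation over samples. The scripts were tested on simulated CM-like sums with known changes at P28. At the fitted dispersion of 0.36, 4% of 4-fold and 22% of 8-fold changes were called from P4 to P28. At a dispersion of 0.0901 these were 93 and 100%. A stage difference that missed the threshold thus does not show that a level stayed the same.

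CM-like sums held 864734 to 24934136 UMIs. Same-numbered knockdown animals shared chips, and their deviations from the group means correlated at 0.156 over 15625 genes in CM-like sums. With 2 animals per hairpin, an exact permutation over animals could not pass the threshold. The members and lists were chosen with earlier results of these data known. The genes named are the 6 members, the energy list, the class markers and the 5 genes most correlated with Ckm, Ckmt2 and Ckb. Other scalings, filters, class calls and left-out replicates were tried. 1 gene of the energy list is not reported here.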

Additional observations from a re-analysis of the deposited data

Results flagged for a closer look

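In 20 groups of 4 to 10 samples, the highest or lowest value was tested for distance from the rest by Dixon's ratio, which chance alone passes in about 1 of 20 groups. Ckb in fibroblast-like cells of P28 replicate 6 stood apart at 388.6 CPM, where replicates 1, 2 and 4 were at 148, 154 and 156 CPM. In macrophage-like cells of P28 replicate 1, Ckm (433 CPM), Ckmt2 (761 CPM), Mb (3832 CPM) and Slc6a8 (15.5 CPM) stood above the other 3 samples. For Slc6a8 these sums held only 4 to 9 UMIs each. Those 37 cells held CM markers at 18757 CPM, against 782 to 1884 CPM in the macrophage-like cells of replicates 2, 4 and 6, and the part of this in the levels was not tested.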

How the results depend on the processing

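Of 696 recomputed values, 518 kept their direction and side of the threshold or moved little, 136 moved, 28 lost a call, 7 gained one and 7 changed sign. The shift of the Ckb ratio kept both in all 20 alternatives (-3.15 to -2.01), where the largest shift rests on a sum with no Ckb UMI. From P4 to P28, 2 members were called, 1 with only the 2 stages fitted or with CMs called cell by cell, and 0 to 2 with a replicate left out. Ckmt2 lay between 2.67 and 3.13 and Mb between 1.81 and 2.499 with a replicate left out, and Mb was at 2.07 with 2 stages (edgeR adjusted p = 0.0549) and 2.42 cell by cell (0.112). From P4 to P14 the 2 calls became 1 cell by cell or without atrial cells, and 0 to 3 with a replicate left out. Of the list, 3 were called, 5 without TMM factors, with sums of at least 20 cells or per animal, 1 cell by cell, and 0 to 5 with a replicate left out. Over all genes, 292 calls became 930 in DESeq2, 611 with no filter, 978 with 2 stages, 735 with 20 cells, 609 per animal, 103 cell by cell, 160 with at least 1000 genes per cell and 35 to 738 with a replicate left out (35 and 43 without P4 replicate 1 or 2, 735 and 738 without P7 replicate 1 or 2). Without TMM factors, calls from P4 to P28 split into 123 higher and 234 lower in place of 171 and 121, and from P7 to P14 into 144 and 1653 in place of 270 and 138. In place of 0 members, endothelial-like sums gave 2 with no filter and 3 without P28 replicates 1, 3 and 5. Fibroblast-like sums gave 1 per animal and 1 without those samples, macrophage-like sums 1 under either and 1 with no filter, and both 0 to 1 with a replicate left out. Slc6a8 from P4 to P28 reversed to -0.10 without TMM factors, -0.21 without P28 replicate 5 (up to 0.42 with another replicate left out), -0.027 with UMI limits over all cells, -0.47 without atrial cells and -0.046 without a P28 cluster led by Acta1, and Ak1 to 0.024 cell by cell and 0.041 without atrial cells. The causes were not tested. With a replicate block for knockdown animals that share chips, 0 members and 0 genes were called, and Jun was at -1.09. With sums per chip and hairpin blocked by chip, 11, 3 and 1 genes were called in CM-like, fibroblast-like and macrophage-like sums, again with 0 members. Those sums repeat the same animals on several chips. Alternatives added after the data were seen were the 2 other scalings, P14 wells typed as CMs, the unnamed knockdown clusters, and leaving out P28 replicates 1, 3 and 5 or the clusters led by Acta1, Sp1 or Ccl21a. Depth limits Ckb, with 17 UMIs in 1 P14 sum.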
